A study of Homo sapiens with 4 samples.

Results

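Small leucine-rich proteoglycans (SLRPs) are secreted matrix proteins built around a curved stack of leucine-rich repeats, and 10 of their genes, DCN, LUM, BGN, FMOD, OGN, ASPN, PRELP, PODN, OMD and ECM2, were taken by name out of the 57820 gene IDs of an RNA-seq count table. All 10 were found. The table holds 2 RB1 KO and 2 wild-type libraries of IMR-90, a line of fibroblasts from human fetal lung, grown to confluence in high-glucose medium with serum. RB1 encodes the retinoblastoma protein, a brake on E2F-driven cell cycle genes, and the series asked how its loss changes gene expression. The RB1 KO cells were a pool of puromycin-resistant cells transduced with a lentivirus that carried Cas9 and a guide aimed at the translation start of RB1. No wild-type culture transduced and selected in the same way is described, so effects of transduction, Cas9 or selection cannot be told apart from those of RB1 loss. Western blotting in the study showed loss of the protein, while RB1 transcript counts were 2802 and 2629 in RB1 KO and 2545 and 2392 in wild-type libraries (log2 fold change 0.12, adjusted p = 0.507), which does not check the labels because a small edit there can leave the transcript level as it was.

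In connective tissue SLRPs sit along collagen fibrils and govern how thick and how regular the fibrils become. Many of them carry sugar chains: decorin and biglycan carry chondroitin or dermatan sulfate, while lumican, fibromodulin and osteoglycin can carry keratan sulfate. They also bind growth factors such as TGF-beta and several cell surface receptors. Fibroblasts are a main source of decorin and lumican in lung and skin.

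Promoters are given first for the members that were expressed enough to be tested and for which a RefSeq window was used here (GRCh38.p14, the 250 bases before the annotated start, written 5′ to 3′ along the transcript). Capitals mark a GC box, GGGCGG read on either strand (CCGCCC on the other), and a TATA box, TATAAA read on either strand (TTTATA on the other). These are matches of letters at any place in the window, and whether they act in transcription was not tested.
BGN, chrX:153494730-153494979, plus strand: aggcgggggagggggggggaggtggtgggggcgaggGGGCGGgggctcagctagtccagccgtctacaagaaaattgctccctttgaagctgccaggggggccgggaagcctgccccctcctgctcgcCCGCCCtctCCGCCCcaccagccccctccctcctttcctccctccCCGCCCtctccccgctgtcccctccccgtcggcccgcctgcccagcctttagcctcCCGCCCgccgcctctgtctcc
FMOD, chr1:203351123-203351372, minus strand: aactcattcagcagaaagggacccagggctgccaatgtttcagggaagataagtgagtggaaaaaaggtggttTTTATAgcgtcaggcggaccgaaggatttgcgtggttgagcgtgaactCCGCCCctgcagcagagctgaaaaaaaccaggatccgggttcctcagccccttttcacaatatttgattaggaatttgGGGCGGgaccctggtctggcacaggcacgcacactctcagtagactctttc
PODN, chr1:53061963-53062212, plus strand: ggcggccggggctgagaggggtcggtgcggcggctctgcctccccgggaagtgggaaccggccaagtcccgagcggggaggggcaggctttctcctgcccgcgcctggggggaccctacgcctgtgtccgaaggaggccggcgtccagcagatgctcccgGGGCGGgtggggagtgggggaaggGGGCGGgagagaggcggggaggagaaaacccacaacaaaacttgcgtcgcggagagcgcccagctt
ECM2, chr9:92535991-92536240, minus strand: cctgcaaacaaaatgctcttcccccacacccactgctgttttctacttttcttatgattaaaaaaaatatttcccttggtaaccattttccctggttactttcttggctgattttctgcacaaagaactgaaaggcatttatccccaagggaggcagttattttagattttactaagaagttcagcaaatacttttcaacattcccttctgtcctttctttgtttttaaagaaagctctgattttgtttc
BGN held 5 GC boxes and no TATA box, FMOD held 2 GC boxes and 1 TATA box, PODN held 2 GC boxes, and ECM2 held neither motif. PRELP, OGN and ASPN had windows with no GC box, and OGN had a TATA box. The TATA matches of FMOD and OGN both read TTTATA, so they lay on the strand opposite to the transcript. GC boxes thus lay in 3 of the 7 members with a window, against 42.6% of all 35116 windows of this length, and TATA boxes in 2 of 7, against 10.7%. The E2F letters TTTCCCGC, TTTCGCGC, TTTGCCGC and TTTGGCGC, searched on both strands, were in 0 of the 7 members' windows and in 2.79% of all windows. No window of DCN, LUM or OMD was used here.

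The 10 genes split into expressed and nearly silent ones. Levels between genes are compared as RPKM, the counts scaled to the depth of the library and to each kilobase of merged exons. In wild-type cells DCN stood highest at 107 ± 6.95 RPKM (SD, n = 2). LUM at 45.9 ± 1.95 and BGN at 43.7 ± 4.56 RPKM came next and did not differ beyond their spread over merged exons. PODN followed at 6.60 ± 1.13 RPKM, FMOD at 2.58 ± 0.0749 RPKM and ECM2 at 0.119 ± 0.00378 RPKM, each apart from its neighbours. PRELP, OGN and ASPN were at 0.0454, 0.0419 and 0.0254 RPKM, and OMD was at 0. Among 15942 tested genes with a known length DCN took place 209 from the top, LUM 598 and BGN 643, whereas PODN took 5179 and FMOD 8811. In RB1 KO cells DCN stood at 155 ± 29.8, LUM at 73.7 ± 10.2 and BGN at 44.1 ± 8.23 RPKM, where LUM and BGN did not overlap. With the same gene counts divided by coding length, LUM and BGN were already apart in wild-type cells, at 121 ± 5.14 and 95.2 ± 9.92 RPKM (SD, n = 2). Those counts include reads outside the coding bases, so this length raises genes with long noncoding exon parts. By merged exons DCN took place 121 in RB1 KO cells, LUM 345, BGN 663, PODN 4948 and FMOD 7575. The lead of DCN over LUM depends on the length used, because the DCN exons sum to 12941 bases over all its transcripts but only 1077 bases are coding. The DCN to LUM ratio of levels was 2.33 in wild-type and 2.10 in RB1 KO cells over merged exons. It was 10.6 in wild-type cells when the same counts were divided by coding length.

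**Figure D1:**
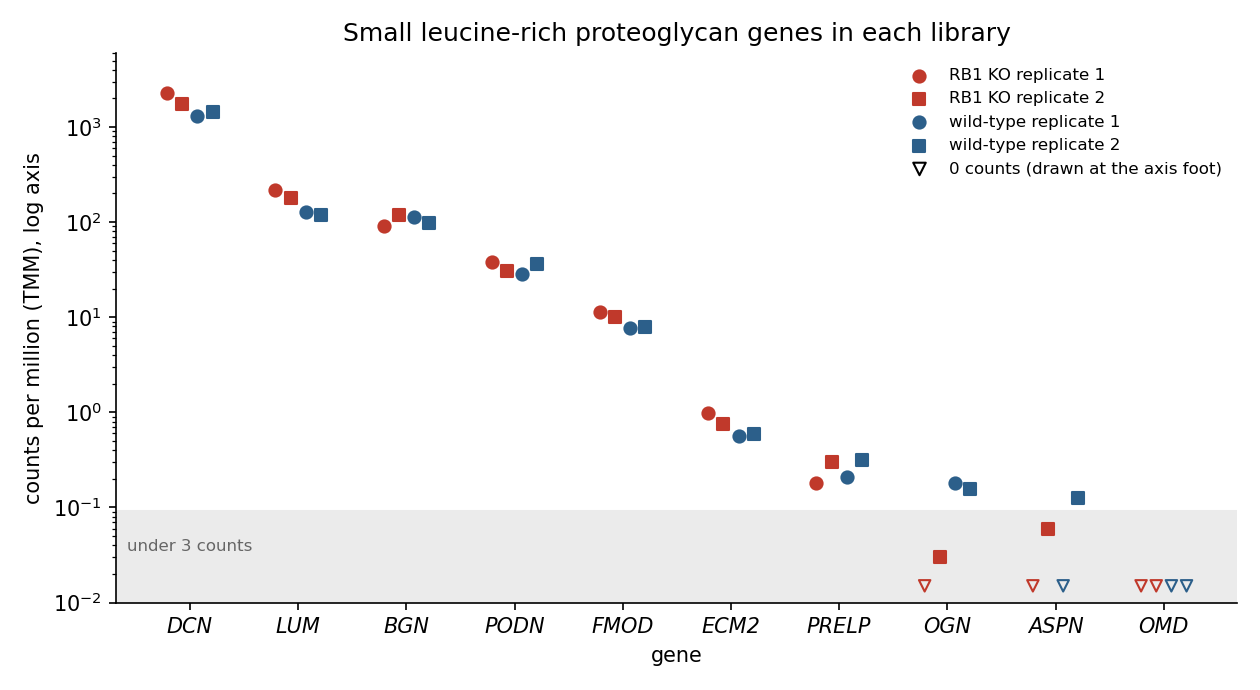
Levels in CPM (counts scaled by TMM to a common depth, log axis) of the 10 SLRP genes in each of the 4 libraries, with RB1 KO in red, wild-type in blue and 0 counts drawn as open triangles at the foot of the axis. DCN, LUM, FMOD and ECM2 have both RB1 KO libraries above both wild-type libraries, BGN and PODN overlap, and the 4 genes at the right have 10 counts or fewer in each library.

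LUM, which encodes lumican, was 1.60-fold higher in RB1 KO than in wild-type cells and passed the test. DCN, its neighbour on chromosome 12, and FMOD, another lumican-like member, had ratios of 1.45 and 1.38 with both RB1 KO libraries above both wild-type libraries, and did not pass. The libraries of the 2 genotypes overlapped for BGN and PODN, with ratios of 1.01 and 1.06. The test was the quasi-likelihood test of edgeR, adjusted by Benjamini and Hochberg's method over all 16426 genes with enough counts. A gene is said to pass at an adjusted p under 0.1, a cutoff that the study applied with DESeq2 rather than edgeR. DESeq2, run here as an alternative, called LUM and DCN (adjusted p = 8.28e-07 and 0.000888). Of the 10 genes 6 were tested, 1 passed higher and 0 lower, against 1.99% of all tested genes higher and 0.907% lower. Before adjustment 3 had p under 0.05 on the higher side and 0 on the lower. The share of all tested genes with such a p was not counted. Counts before adjustment, here and for the lists and markers below, therefore have no baseline. Nothing states that the 2 libraries of a genotype came from separate cultures, so these p-values measure the spread between libraries, which may be technical. Fewer cells making a transcript and less of it per cell cannot be told apart in such bulk RNA.

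Class II holds lumican and fibromodulin, which bind the same region of type I collagen. LUM had 7108 and 5921 counts in RB1 KO and 4211 and 3791 counts in wild-type libraries, or 216 and 178 against 126 and 119 CPM (scaled by TMM). Both RB1 KO libraries lay well above both wild-type libraries. The means were 197 ± 27.2 and 123 ± 5.21 CPM (SD, n = 2 each), with a log2 fold change of 0.68 (95% interval 0.45 to 0.91, adjusted p = 0.0245 from edgeR). LUM passed with each library left out, at log2 fold changes from 0.54 (RB1 KO replicate 1 left out) to 0.82 (RB1 KO replicate 2 left out).

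FMOD, whose protein guides collagen cross-linking by lysyl oxidase, had 377 and 338 counts in RB1 KO and 255 and 254 counts in wild-type libraries, at 10.8 ± 0.934 and 7.82 ± 0.227 CPM (SD, n = 2 each). The groups did not overlap, and wild-type libraries were nearly equal. Its log2 fold change of 0.47 (95% interval 0.17 to 0.76) did not pass (adjusted p = 0.139 from edgeR, 0.241 from DESeq2). Without RB1 KO replicate 2 it was 0.56 and passed (adjusted p = 0.0365 from edgeR).

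Class I holds decorin, biglycan, asporin and, as a relative, ECM2. DCN, the prototype of the family and a ligand of TGF-beta, had 75007 and 57818 counts in RB1 KO and 44009 and 46121 counts in wild-type libraries. In CPM these were 2281 and 1735 against 1321 and 1448. RB1 KO replicate 1 stood apart at the top, and RB1 KO replicate 2 was nearer to the wild-type libraries than to it. The means were 2008 ± 386 and 1385 ± 89.9 CPM (SD, n = 2 each), and the log2 fold change of 0.54 (95% interval 0.22 to 0.85) did not pass in edgeR (adjusted p = 0.12). DESeq2 gave 0.55 and called DCN (adjusted p = 0.000888), so that it called 2 members, with 3.01% of its 14134 adjusted genes called higher. Without RB1 KO replicate 1 the log2 fold change was 0.33 (adjusted p = 0.175 from edgeR). DCN passed at 0.72 with RB1 KO replicate 2 left out, and at 0.61 with wild-type replicate 2 left out (adjusted p = 0.0795 from edgeR).

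BGN, the closest relative of decorin and a ligand of Toll-like receptors when set free from the matrix, had 3028 and 4000 counts in RB1 KO and 3760 and 3101 counts in wild-type libraries. The libraries of the 2 genotypes interleaved. The means were 106 ± 19.8 and 105 ± 11.0 CPM (SD, n = 2 each), and the log2 fold change was 0.01 with a 95% interval from -0.28 to 0.31 (adjusted p = 0.977 from edgeR), which leaves room for changes up to that size. Its sign was negative with library totals as the only scaling (-0.05) and with upper-quartile factors (-0.01), and ran from -0.19 to 0.19 as each library was left out.

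ECM2, a matrix protein with the leucine-rich repeats of the family, had only 32 and 25 counts in RB1 KO and 19 and 19 counts in wild-type libraries. The groups did not overlap, but at this depth the 95% interval of its log2 fold change of 0.56 ran from -0.22 to 1.34 (adjusted p = 0.49 from edgeR). PODN, a class V member known from kidney podocytes and smooth muscle, had 1238 and 1025 counts in RB1 KO and 946 and 1154 counts in wild-type libraries. These interleaved, and the log2 fold change was 0.08 (95% interval -0.24 to 0.40, adjusted p = 0.828 from edgeR). Leaving out replicate 1 of either genotype turned it to -0.07.

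The remaining 4 members were too low to be tested. OMD, which encodes the bone protein osteoadherin, had 0 counts in every library, which allows at most 0.0900 to 0.0942 CPM (3 counts). ASPN had 0 and 2 counts in RB1 KO and 0 and 4 in wild-type libraries, a ratio of 0.492 with an exact 95% interval of 0.0445 to 3.43. PRELP, a heparin-binding member found near basement membranes, had 6 and 10 against 7 and 10 counts, a ratio of 0.926 (exact 95% interval 0.438 to 1.95). OGN, whose product osteoglycin is also called mimecan, had 0 and 1 counts in RB1 KO and 6 and 5 in wild-type libraries. It was the only member with both RB1 KO libraries below both wild-type libraries, with a ratio of 0.0895 (exact 95% interval 0.00208 to 0.616, counting error only, 1 against 11 counts). Tested without the filter on low counts it did not pass (adjusted p = 0.47 from edgeR). Intervals and limits of this kind cover counting error only.

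**Figure D2:**
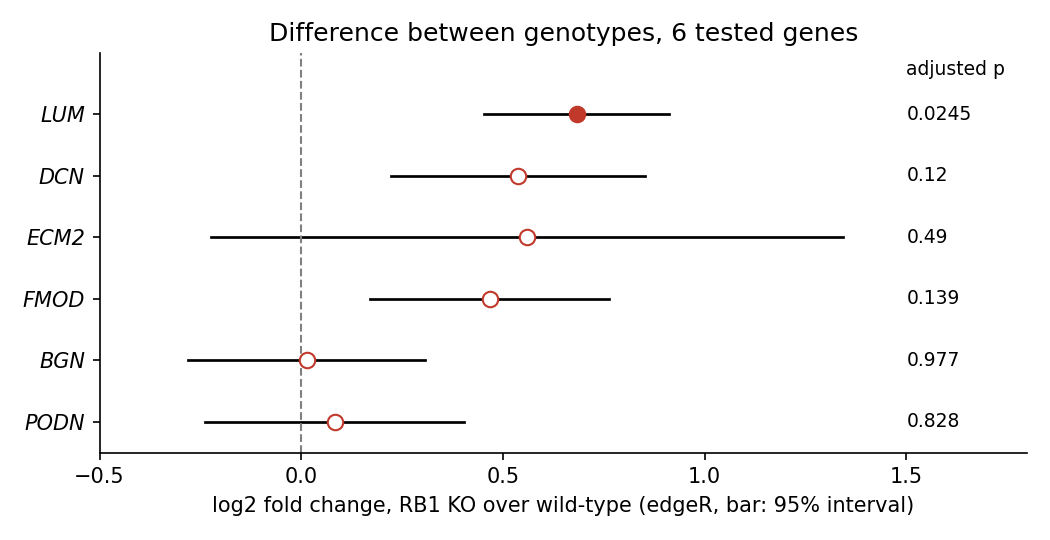
Log2 fold change of RB1 KO over wild-type for the 6 tested SLRP genes from edgeR, with bars for the 95% interval, adjusted p at the right and a filled point where it is under 0.1. LUM is filled at 0.68, DCN and FMOD have intervals above 0 without passing, and the intervals of ECM2, BGN and PODN span 0.

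Both RB1 KO libraries lay above both wild-type libraries for 4 of the 6 tested members, DCN, LUM, FMOD and ECM2, while this held for 22.5% of all tested genes. The log2 fold change was positive for 6 of 6 and for 48.3% of all tested genes, and it stayed positive for 3 of 6, LUM, DCN and ECM2, when libraries were scaled by ERCC spike-in counts. The median was 0.50 over the 6 members and -0.01 over all tested genes. ERCC scaling moved the median of all genes to -0.49, and LUM to 0.21 (adjusted p = 0.598 from edgeR). Relative to the median of all genes LUM stood at 0.70 with ERCC scaling and at 0.69 with TMM. A scaling factor shifts all genes of a library alike, so this gap stays nearly the same by construction and does not check the call. The ERCC share of counts was 0.135% in wild-type replicate 2 and 0.187% to 0.210% in the other libraries.

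**Figure D3:**
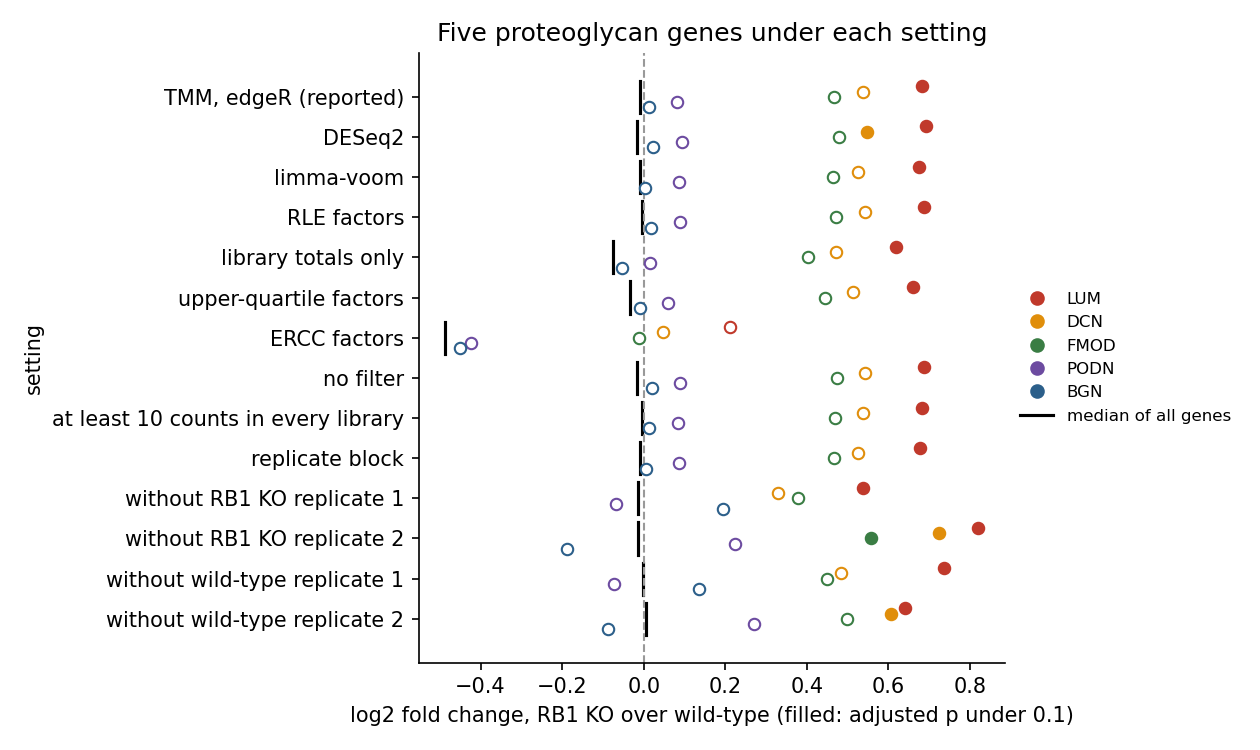
Log2 fold change of RB1 KO over wild-type for LUM, DCN, FMOD, PODN and BGN under the reported setting and 13 others, filled where the adjusted p is under 0.1, with a black bar at the median of all genes tested. LUM is filled in every row but that of ERCC factors, where the median of all genes is -0.49, FMOD, PODN and BGN turn negative and LUM is at 0.21. PODN and BGN change sign as single libraries are left out, and BGN also with library totals and upper-quartile factors.

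As a pool of transcripts the family was dominated by decorin. The summed level of the 10 genes was 2640 and 2075 CPM in RB1 KO and 1597 and 1710 CPM in wild-type libraries, with means of 2358 ± 399 and 1654 ± 79.7 CPM (SD, n = 2 each) and a fold of 1.43. The groups did not overlap, but the 6 ways of splitting 4 libraries cannot give a two-sided exact permutation p below 0.333, the value obtained. DCN made up 86.4% and 83.6% of the members' counts in RB1 KO and 82.7% and 84.7% in wild-type libraries (Wilson 95% intervals 86.2% to 86.6% and 83.3% to 83.9%, and 82.4% to 83.0% and 84.4% to 85.0%). These intervals cover counting error only, and those of the 2 libraries of a genotype did not overlap. LUM made up 8.19% and 8.56% against 7.91% and 6.96%, BGN 3.49% and 5.79% against 7.07% and 5.69%, and PODN 1.43% and 1.48% against 1.78% and 2.12%. Of these shares those of LUM were higher and those of PODN lower in both RB1 KO libraries than in both wild-type libraries, while those of DCN and BGN overlapped. A share also falls when other members rise. The level of PODN itself overlapped, at 37.7 and 30.8 CPM in RB1 KO and 28.4 and 36.2 CPM in wild-type libraries.

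Ratios of 2 members within a library do not depend on how libraries are scaled. There were 2.35 and 1.48 LUM counts for each BGN count in RB1 KO libraries and 1.12 and 1.22 in wild-type libraries, which did not overlap. FMOD gave 0.125 and 0.0845 for each BGN count against 0.0678 and 0.0819, also apart, though RB1 KO replicate 2 lay close to wild-type replicate 2. DCN gave 24.8 and 14.5 for each BGN count against 11.7 and 14.9, and LUM gave 0.0948 and 0.102 for each DCN count against 0.0957 and 0.0822, and both of these overlapped. By the two-sided exact permutation test (n = 2 each) p was 0.333 for the LUM to BGN and FMOD to BGN ratios, the smallest possible, and 0.667 for the others, or 0.667 for each when adjusted over the 4 ratios, which were chosen after the values were seen. Without RB1 KO replicate 1 the log2 difference between genotypes fell from 0.71 to 0.34 for LUM to BGN, from 0.48 to 0.17 for FMOD to BGN and from 0.56 to 0.12 for DCN to BGN.

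SLRP genes lie in clusters, here placed on GRCh37. On chromosome 12 EPYC, KERA, LUM (ENSG00000139329.4, 91496406 to 91505271, minus strand) and DCN (ENSG00000011465.12, 91534261 to 91576994, minus strand) span 220 kb, with a gap of 29.0 kb between LUM and DCN. LUM and DCN, at log2 fold changes of 0.68 and 0.54, were the expressed pair of this cluster. KERA, which encodes the corneal keratan sulfate proteoglycan keratocan, had 1 count in RB1 KO replicate 2 and 0 elsewhere, and EPYC, a cartilage member, had 0 and 3 counts in RB1 KO and 0 and 2 in wild-type libraries. On chromosome 1 FMOD (ENSG00000122176.10, 203309756 to 203320886, minus strand) and PRELP (ENSG00000188783.5, 203444934 to 203460480, plus strand) lie 124 kb apart, next to OPTC, which had 0 counts in every library.

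On chromosome 9 OGN (ENSG00000106809.6, 95145550 to 95166978), OMD (ENSG00000127083.7, 95174662 to 95186753), ASPN (ENSG00000106819.7, 95218487 to 95244788) and ECM2 (ENSG00000106823.8, 95255836 to 95298937) follow each other on the minus strand over 153 kb. All 4 of them were nearly silent. They lie inside the span of CENPP, a centromere protein gene on the other strand with which they share 0 exon bases. CENPP had 163 and 173 counts in RB1 KO and 231 and 168 in wild-type libraries (log2 fold change -0.27, adjusted p = 0.526 from edgeR). ECM2 also holds the microRNA gene MIR4670, which had 0 counts in each library.

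Of the members outside these clusters, PODN (ENSG00000174348.9, chromosome 1, 53527724 to 53551173, plus strand) shares 466 of its 4899 exon bases with a long noncoding RNA on the other strand (ENSG00000232993), which had 49 and 45 counts in RB1 KO and 29 and 37 in wild-type libraries. It shares a further 280 with the pseudogene HIGD1AP11, with 2 counts or fewer in each library. BGN (ENSG00000182492.11, chromosome X, 152760438 to 152775004, plus strand) overlaps HAUS7 on the other strand with 0 shared exon bases and 7, 21, 10 and 15 HAUS7 counts in the 4 libraries. The libraries kept strand, but the sources used here do not state which strand's counts were kept, so the reads of PODN and of its antisense neighbours may not be fully separate.

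The enzymes that build and sulfate the sugar chains of these proteins were taken as 3 lists, whose counts stand beside 1.99% higher and 0.907% lower over all tested genes. Of 22 enzymes of the linker and of chondroitin and dermatan sulfate 21 were tested, 3 passed higher and 1 lower, and the median log2 fold change was 0.14. DSEL, an epimerase of the kind that turns chondroitin into dermatan sulfate, had 13176 and 12297 counts in RB1 KO and 7659 and 8233 in wild-type libraries, a log2 fold change of 0.66 (adjusted p = 0.0186 from edgeR). CSGALNACT1 and CSGALNACT2, which begin chondroitin chains, were at 0.72 and 0.47 (adjusted p = 0.0725 and 0.0323 from edgeR). CSGALNACT2 did not pass without wild-type replicate 1 (adjusted p = 0.117 from edgeR), and with ERCC scaling 0 of the list passed higher and CSGALNACT2 was at -0.02. CHST15, which adds a further sulfate to chondroitin sulfate, passed lower with 1 and 1 against 12 and 11 counts (adjusted p = 0.066 from edgeR). Its ratio was 0.0856 (exact 95% interval 0.00978 to 0.346). CHST15 entered the test through its wild-type counts alone, and without the filter on low counts it did not pass (adjusted p = 0.139 from edgeR). DESeq2 gave it no adjusted p, and a filter requiring the minimum count in every library left it out. Its log2 fold change was -3.40 without RB1 KO replicate 1 and -3.38 without RB1 KO replicate 2. CHST15 did not pass in either case.

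Of 12 keratan sulfate enzymes 10 were tested and 1 passed higher, with a median of 0.11. ST3GAL1, a sialyltransferase, had a log2 fold change of 0.54 (adjusted p = 0.0725 from edgeR, and 0.181 without wild-type replicate 1), while B4GALT1, a galactosyltransferase, had 0.25 with TMM and -0.22 with ERCC scaling (adjusted p = 0.124 from edgeR). ST3GAL1 was at 0.42 without RB1 KO replicate 1 and at 0.67 without RB1 KO replicate 2. All 10 genes found for sulfate and nucleotide sugar supply were tested, 1 passed higher, and the median was 0.05. PAPSS2, which makes the activated sulfate used by all sulfotransferases, had a log2 fold change of 0.34 with TMM and -0.13 with ERCC scaling (adjusted p = 0.0725 from edgeR, 0.126 without wild-type replicate 1 and 0.182 without wild-type replicate 2). UGDH, which makes the glucuronic acid donor, was at -0.15 (adjusted p = 0.368 from edgeR). PAPSS2 was at 0.32 without RB1 KO replicate 1 and at 0.37 without RB1 KO replicate 2. With a library left out the number of genes called changed over the whole table, so counts of these lists in such fits are not given.

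The collagens on which SLRPs sit had positive log2 fold changes with TMM scaling, none of which passed in edgeR. Of 12 fibrillar and fibril-bound collagen genes 11 were tested, 0 passed in edgeR in either direction (6 higher and 0 lower before adjustment, at p under 0.05), and 11 of 11 were positive, with a median of 0.30. COL1A2 had 0.45 and COL1A1 had 0.30 (adjusted p = 0.184 and 0.336 from edgeR), and with ERCC scaling they had -0.04 and -0.18. Of this list DESeq2 called 7 higher, limma-voom 2 and edgeR without the filter on low counts 5. Over all genes these called 426 of 14134, 313 of 16426 and 230 of 29661 higher. COL1A2 was among those called by DESeq2, limma-voom and edgeR without that filter (adjusted p = 0.000541, 0.0944 and 0.0463). COL1A1 was among those called by DESeq2 and by edgeR without that filter (adjusted p = 0.0181 and 0.0545). Without RB1 KO replicate 1 COL1A2 was at 0.35, and without RB1 KO replicate 2 at 0.55.

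Among 24 receptors and growth factors that SLRPs bind 20 were tested, 3 passed higher and 0 lower (1.99% and 0.907% of all tested genes), and the median log2 fold change was 0.23. CCN4, a matricellular protein that binds decorin and biglycan, had 1208 and 1218 counts in RB1 KO and 494 and 444 in wild-type libraries, a log2 fold change of 1.35 (adjusted p = 0.00534 from edgeR). KDR, a VEGF receptor, had 107 and 68 against 24 and 24 counts (1.84, adjusted p = 0.0393 from edgeR). HGF, the ligand of the MET receptor that decorin also binds, was at 0.43 with TMM and at -0.06 with ERCC scaling (adjusted p = 0.0754 from edgeR, and 0.273 without wild-type replicate 1). With ERCC scaling 0 of this list were called higher (11 of all 16426 tested genes).

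Of 15 proteases that process or cleave SLRPs 10 were tested and 0 passed in edgeR, with a median of 0.20. Before adjustment 6 were higher and 0 lower at p under 0.05. DESeq2 called 1 higher and limma-voom 0, against 426 of 14134 and 313 of 16426 over all genes. ADAMTS1 and MMP2, the most abundant of them, had 0.27 and 0.12 (adjusted p = 0.291 and 0.558 from edgeR), and with ERCC scaling they had -0.22 and -0.37. The log2 fold changes of the 10 ran from -0.16 to 1.98. With ERCC scaling 1 of this list was called higher (11 of all 16426 tested genes). With the replicate number as a block 1 was called higher (152 of all 16426). ADAMTS1 was at 0.17 without RB1 KO replicate 1 and at 0.37 without RB1 KO replicate 2. Of the other 8 SLRP genes 3 were tested and 0 passed in edgeR, DESeq2 or limma-voom, nor did any have an unadjusted p under 0.05 in edgeR, and the median was -0.31. TSKU, a secreted relative of the family, had -0.13 and PODNL1, related to podocan, had -0.31 (adjusted p = 0.551 and 0.427 from edgeR), and PODNL1 passed lower without RB1 KO replicate 1 (-0.56, adjusted p = 0.0872 from edgeR).

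**Figure D4:**
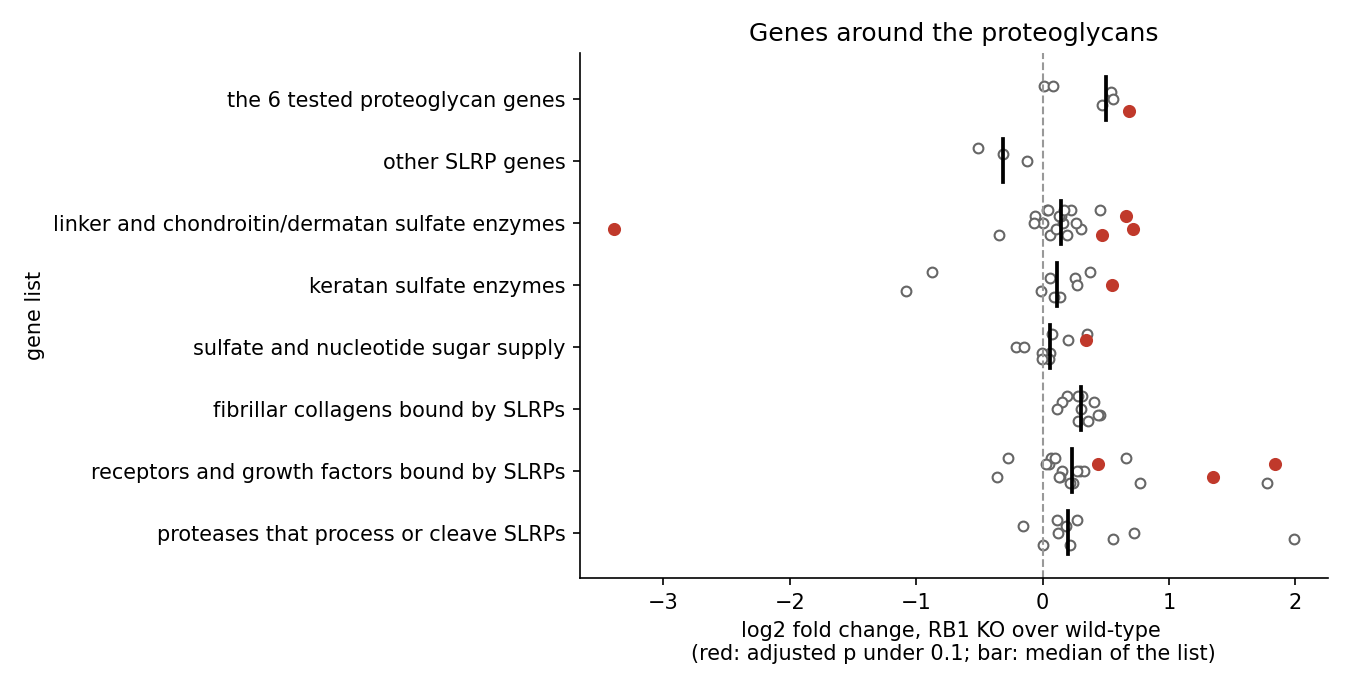
Log2 fold change of RB1 KO over wild-type (TMM scaling) for each tested gene of the SLRP set and of 7 lists around it, with genes at an adjusted p under 0.1 in red and the median of each list as a black bar. The median is 0.50 for the 6 tested SLRP genes, 0.30 for the collagens and -0.31 for the other SLRP genes, and CHST15 is the red point at the far left, with 2 counts over both RB1 KO libraries. With ERCC scaling the median of all genes is -0.49, and COL1A1 and COL1A2 are then negative.

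The libraries carried the markers of fibroblasts. All 8 fibroblast markers were tested and 0 passed in edgeR (2 higher and 0 lower before adjustment, at p under 0.05). DESeq2 called 3 higher and limma-voom 1, against 426 of 14134 and 313 of 16426 over all genes. Their summed level was 40122 to 44579 CPM in RB1 KO and 32899 to 34682 CPM in wild-type libraries, and the median log2 fold change was 0.23, with FAP, the least abundant, at 0.16 with TMM and -0.31 with ERCC scaling. This sum thus lay higher in the genotype with more LUM, but much of it came from the collagen genes COL1A1 and COL1A2. Their means were 15548 and 13185 CPM in RB1 KO and 12599 and 9648 CPM in wild-type libraries. Of 8 epithelial markers 4 were tested and 0 passed by any of the 3 tools (1 lower before adjustment), with a sum of 31.8 to 39.9 CPM against 41.2 to 53.6 CPM, and CDH1, SFTPC and NKX2-1 were at 0 in each library. Of the 6 endothelial markers 5 were matched, 2 were tested and 0 passed by any of them (1 higher before adjustment), with a sum of 1.95 to 2.22 CPM against 1.29 CPM, and CDH5 and ERG were at 0. The 6 blood markers summed to 0.314 CPM or less in each library, with CD3E at 0. Of 7 cartilage and tendon markers 3 were tested and 0 passed by any of them or before adjustment, with a sum of 106 to 137 CPM against 99.99 to 117 CPM, and TNMD was at 0.

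Of the 6 smooth muscle and pericyte markers 2 passed higher and 2 lower in edgeR (1.99% and 0.907% of all tested genes). DESeq2 called 1 higher and 2 lower, against 426 and 160 of its 14134 adjusted genes. NOTCH3 had a log2 fold change of 0.59 and RGS5 of 1.38 (adjusted p = 0.0153 and 0.0712 from edgeR), and the contractile genes MYH11 and DES had -0.85 and -1.68 (adjusted p = 0.0487 and 0.0761 from edgeR). ACTG2, also a contractile gene, went the other way at 0.32, and CSPG4 was at -0.32 (adjusted p = 0.444 and 0.269 from edgeR). RGS5 was not called by DESeq2 (adjusted p = 0.130), and with ERCC scaling neither NOTCH3 nor RGS5 passed (adjusted p = 0.776 and 0.279 from edgeR). RGS5, MYH11 and DES did not pass without wild-type replicate 1 (adjusted p = 0.102, 0.117 and 0.169 from edgeR). The list summed to 687 to 824 CPM in RB1 KO and 539 to 678 CPM in wild-type libraries. The part of these marker differences in the SLRP values was not tested.

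The genes whose pattern over the 4 libraries lay closest to that of LUM were INKA2, SDC2 and TM6SF1, with root mean square differences of 0.0240, 0.0316 and 0.0486 in centred log2 CPM. SDC2, which encodes the cell surface heparan sulfate proteoglycan syndecan-2, had 4173 and 3594 counts in RB1 KO and 2443 and 2317 in wild-type libraries, a log2 fold change of 0.68 (adjusted p = 0.0180 from edgeR), close to that of LUM. INKA2 had 0.68 and TM6SF1 0.75 (adjusted p = 0.0672 and 0.19 from edgeR), and INKA2 did not pass without wild-type replicate 1 (adjusted p = 0.127 from edgeR). With 4 libraries in 2 groups many genes share such a pattern, and the likeness is a description only. Log2 fold changes close to that of LUM follow from how these genes were chosen.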

How the data were processed

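RNA of confluent IMR-90 cells was sequenced in 2 RB1 KO and 2 wild-type libraries, grouped by their titles. The authors depleted rRNA, made directional libraries, aligned reads to GRCh37 with STAR, given as 2.7.2b in the processing notes, and counted the reads of each GENCODE 19 gene that mapped uniquely. The deposited values are these raw counts, with no normalization, and reads falling on overlapping genes or several places were left out. Gene counts per library were 30873239 to 34247292. Library sizes left out 92 ERCC, 7 SIRV and 4 summary lines. Replicates correlated across genes (r of 0.992 and 0.993) and were further apart than sampling noise.

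Tests used edgeR 4.0.16 in R 4.3.3 (glmQLFTest, TMM, filterByExpr with a minimum count of 10 and total of 15, Benjamini-Hochberg, adjusted p under 0.1). Standard errors, from which 95% intervals follow, came from the F statistic. Alternatives were DESeq2 1.42.0, limma-voom (limma 3.58.1), other scalings and filters, a stricter cutoff, a replicate block and leaving out each library. The script was tested on simulated counts. Names, positions and lengths came from GENCODE 44 on GRCh37, which paired 55538 IDs with a symbol. IMPAD1, PECAM1 and SCX were not matched. Tables and plots used Python 3.11.15, pandas 2.3.3 and matplotlib 3.10.9.

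Named were the 10 members, RB1, genes overlapping a member, in each list the passing genes, at most the 4 of smallest p (or, with fewer than 2 passing, also the 2 of highest CPM), the passing markers, the highest and lowest fibroblast marker, and the 3 genes of at least 1 CPM nearest to each passing member. The neighbours KERA, EPYC and OPTC were named with their clusters, and ACTG2 and CSPG4 to complete their marker list. The members and lists were chosen with earlier results of these data known. The study's own enriched gene categories, drawn from these libraries, include LUM and DCN, so their direction is not independent evidence. 1 marker gene is not reported here by name.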

Additional observations from a re-analysis of the deposited data

How the results depend on the processing

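Among the alternatives for the 6 tested members, 70 values kept direction and side of the threshold, 9 reversed, 4 newly passed and 1, LUM with ERCC factors, no longer passed. The number of members higher was 1 with TMM and edgeR, 2 with DESeq2, 0 with ERCC factors and 1 to 3 as each library was left out (3 without RB1 KO replicate 2, 2 without wild-type replicate 2). Members with a positive log2 fold change fell from 6 to 3 with ERCC factors. The summed level of the family had a log2 fold of 0.51, 0.03 with ERCC factors and 0.33 to 0.67 as each library was left out.

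Over all genes, 327 were higher and 149 lower. ERCC factors gave 11 higher, an adjusted p under 0.05 gave 157 higher and 65 lower, library totals 326 lower and no filter 90 lower. Leaving out each library gave 184 to 770 higher and 69 to 661 lower. BGN was at -0.053 with library totals, at -0.010 with upper-quartile factors and at -0.19 to 0.19 as each library was left out. PODN was at -0.072 to 0.27 as each was left out. With ERCC factors BGN was at -0.45, PODN -0.42, FMOD -0.012, CSGALNACT2 -0.022, B4GALT1 -0.22, PAPSS2 -0.13, COL1A1 -0.18, COL1A2 -0.040, HGF -0.059, ADAMTS1 -0.22, MMP2 -0.37, FAP -0.31 and RB1 -0.36. The ERCC factor of wild-type replicate 2 was 0.740, against 1.03 to 1.16 in the other libraries. The cause was not tested.

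With the replicate number as a block, 152 genes were higher and 74 lower, LUM still passed (adjusted p = 0.0304 from edgeR) and DCN did not (adjusted p = 0.264 from edgeR). CHST15, ST3GAL1, PAPSS2, HGF and INKA2 did not pass under the block. The numbers only name the libraries: deviations of same-numbered libraries correlated at -0.20. A crossed pairing, added after seeing the data, gave 1611 higher and 1362 lower. Depth limits OGN, ASPN, PRELP, OMD and ECM2, which had 32 counts or fewer in each library.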
